A study of Mus musculus with 4 samples.

Results

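The 7 genes described here encode secreted factors of mast cells and of type 2 immunity: the cytokines Il9, Il13, Il4, Il5 and Il6, the chemokine Ccl2 and the growth factor Areg. They were chosen by name, with their measured levels in these libraries known, out of 16500 gene symbols listed in any of the 4 libraries. Their shares of cells with a transcript are therefore a description and were not tested. The libraries were single-cell 3′ transcript counts (UMIs, unique molecular identifiers, each standing for 1 captured transcript) of sorted CD45.2+ leukocytes from the epithelial layer of stomach, small intestine, cecum and colon of uninfected C57BL/6 mice. There was 1 library per tissue, so tissues carry no replicate, and the labels used here give neither the number of animals pooled nor their age. The extraction text of all 4 records speaks of colons, while the tissue labels name 4 organs, and the tissue labels were followed.

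Mast cells store proteases and amines in granules and release cytokines and chemokines after their IgE receptor or other receptors are engaged. Group 2 innate lymphoid cells (ILC2) and helper T cells of type 2 are the lymphoid sources of interleukins 4, 5, 9 and 13, which recruit and sustain eosinophils and mast cells and change epithelial secretion. Mucosal mast cells of mice are marked by the chymases Mcpt1 and Mcpt2.

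All 7 genes were listed in the stomach library. The small intestine library listed 5 of them, with Il9 and Il5 not listed. The cecum library listed Ccl2, Il4 and Areg, and the colon library listed Ccl2, Il13 and Areg. After barcodes with under 200 genes were left out, the libraries held 3197 stomach, 3171 small intestine, 4244 cecum and 3761 colon cells, with median depths of 1707 to 2986 UMIs per cell, and 23 barcode sequences occurred in 2 libraries. Mast cells were taken as cells with at least 3 UMIs of the carboxypeptidase Cpa3 and none of Cd3d, Cd3e, Cd3g or Cd79a. This gave 1775 mast cells in the stomach, 56 in the small intestine, 15 in the cecum and 2 in the colon. The stomach mast cells carried Mcpt2 in 99.5%, Cma1 in 94.3%, Kit in 82.8% and Gata2 in 77.9% of cells, while Epcam was at 0 in all of them. Other mast cell markers were seen in fewer: Fcer1a in 29.2%, Mcpt4 in 28.2%, Ms4a2 in 26.2% and Hdc in 23.2%. Cells gated as ILC2 (at least 3 of Gata3, Il7r, Il1rl1, Icos, Rora and Hs3st1) numbered 55 in the stomach, 9 in the small intestine, 1 in the cecum and 2 in the colon. Of markers not used by that gate, Id2 was seen in 49 of the 55 stomach cells, Cxcr6 in 42, Arg1 in 25, Klrg1 in 21, Il17rb in 15, Calca in 11, Lif in 4 and Dgat2 in 2. The ILC2 also held 182 Mcpt2 UMIs in 20 cells and 308 Cd74 UMIs in 8 cells, and the part of transcripts of other cells in the ILC2 values below was not tested. T cells numbered 285, 2475, 3402 and 3350 in stomach, small intestine, cecum and colon. A mast cell transcript was also found in other classes of the stomach library: Mcpt2 had a UMI in 37.7% of the 77 stomach B cells. Their median depth of 2323 UMIs was close to the 1949 UMIs of the mast cells. Whether free RNA or barcodes with more than 1 cell gave these UMIs was not tested.

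The start regions of Il9, Il13, Il4 and Il6 are shown. Il4, Il13 and Il5 lie near each other on 1 chromosome, and pairs of members were seen in the same cells below. A link between position and such pairs was not tested. In the GRCm38.p6 annotation, Il4 (chr11:53612460-53618665), Il13 (chr11:53631323-53634702) and Il5 (chr11:53720794-53725103) lie in this order, with 12657 bases between Il4 and Il13 and 86091 bases between Il13 and Il5. Ccl2 lies on the same chromosome (chr11:82035577-82037452), Il9 on chromosome 13 (chr13:56479277-56482257), and Il6 (chr5:30013114-30019975) and Areg (chr5:91139599-91148432) on chromosome 5. Each sequence is the RefSeq window of 300 bases around the annotated gene start, 5′ to 3′ on the gene's strand, with matches on either strand to 4 motifs in capitals. The GATA motif was any of AGATAA or AGATAG or TGATAA or TGATAG, the AP-1 motif TGANTCA, the NFAT motif GGAAAA, and the NF-kappa-B motif GGG, any pair of bases and TTTCC.
Il9, chr13:56482208-56482507, minus strand: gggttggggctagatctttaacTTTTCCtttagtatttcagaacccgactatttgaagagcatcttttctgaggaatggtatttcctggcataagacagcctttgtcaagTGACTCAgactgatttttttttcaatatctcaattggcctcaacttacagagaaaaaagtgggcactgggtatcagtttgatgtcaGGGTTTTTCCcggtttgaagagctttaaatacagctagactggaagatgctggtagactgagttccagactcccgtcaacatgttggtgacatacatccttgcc
Il13, chr11:53634653-53634952, minus strand: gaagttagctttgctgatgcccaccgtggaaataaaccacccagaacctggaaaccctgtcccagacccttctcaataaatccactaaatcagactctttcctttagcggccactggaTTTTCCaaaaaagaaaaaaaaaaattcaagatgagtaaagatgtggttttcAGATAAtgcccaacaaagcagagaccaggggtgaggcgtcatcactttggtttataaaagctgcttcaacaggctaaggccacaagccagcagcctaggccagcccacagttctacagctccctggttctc
Il4, chr11:53618616-53618915, minus strand: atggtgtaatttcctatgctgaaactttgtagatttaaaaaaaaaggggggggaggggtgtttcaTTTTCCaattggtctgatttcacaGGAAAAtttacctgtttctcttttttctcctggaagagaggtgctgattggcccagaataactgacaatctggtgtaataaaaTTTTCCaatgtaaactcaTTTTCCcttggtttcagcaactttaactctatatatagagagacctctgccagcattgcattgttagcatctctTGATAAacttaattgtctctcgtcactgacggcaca
Il6, chr5:30012864-30013163, plus strand: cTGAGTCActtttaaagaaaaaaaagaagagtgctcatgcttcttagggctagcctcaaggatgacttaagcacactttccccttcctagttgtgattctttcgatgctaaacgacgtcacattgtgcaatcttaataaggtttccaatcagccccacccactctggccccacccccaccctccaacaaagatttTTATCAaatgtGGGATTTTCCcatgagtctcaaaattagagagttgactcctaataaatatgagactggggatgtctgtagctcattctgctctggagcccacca
The Il9 window held 1 AP-1, 2 NFAT and 1 NF-kappa-B match, of which 1 NFAT match lies within the NF-kappa-B match. The Il6 window held 1 match of each of the 4 motifs, and there too the NFAT match lies within the NF-kappa-B match. The Il4 window held 4 NFAT matches and 1 GATA match, and the Il13 window held 1 of each. A second Il4 window, 1327 bases from the gene start and not printed, held 1 GATA match and 0 NFAT matches. The Il5 window held 1 GATA match, the Areg window none of the 4 motifs, and Ccl2 is named only. Among all 32851 windows in the table, 29.8% held the GATA motif, 7.81% the AP-1, 23.4% the NFAT and 1.63% the NF-kappa-B motif, so a GATA or an NFAT match is common. A match describes letters and was not tested as a site.

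Ccl2, a chemokine that draws monocytes, was carried by most stomach mast cells. It had a UMI in 1281 of 1775 cells, 72.2% (exact binomial 95% interval 70 to 74.2), with 11048 UMIs in all, or 2594 CPM (UMIs of the gene per 1000000 UMIs of the class). The positive cells held a median of 4 UMIs, the highest held 93, and 342 cells had 10 or more. The share was 27.3% of 209 stomach macrophages, and 4.56% of T cells, 3.9% of B cells and 3.33% of NK/ILC1 cells. Of the 23 UMIs in T cells 10 lay in 1 cell, and of the 7 in B cells 5 did. Whether the low shares in these 3 lymphoid classes are background was not tested. In CPM, Ccl2 was 4.53-fold higher in mast cells than in macrophages (interval 4.17 to 4.93) and 12.6-fold higher than in ILC2 (8.82 to 18.7), where 28 of the 30 UMIs lay in 1 cell. These intervals, here and below, cover counting error only. Mast cells of the small intestine carried Ccl2 in 32 of 56 cells, 57.1% (43.2 to 70.3). With each cell thinned to 1000 UMIs the shares were 59.7% (57.4 to 62.1) in stomach and 44.6% (31.3 to 58.5) in small intestine mast cells. In the cecum 1 of 15 mast cells carried 34 UMIs, and neither of the 2 colon mast cells had any. Around the Cpa3 threshold, 71.1% of the 97 cells with 3 Cpa3 UMIs and 61.2% of the 67 cells with 2 had a Ccl2 UMI.

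**Figure D1:**
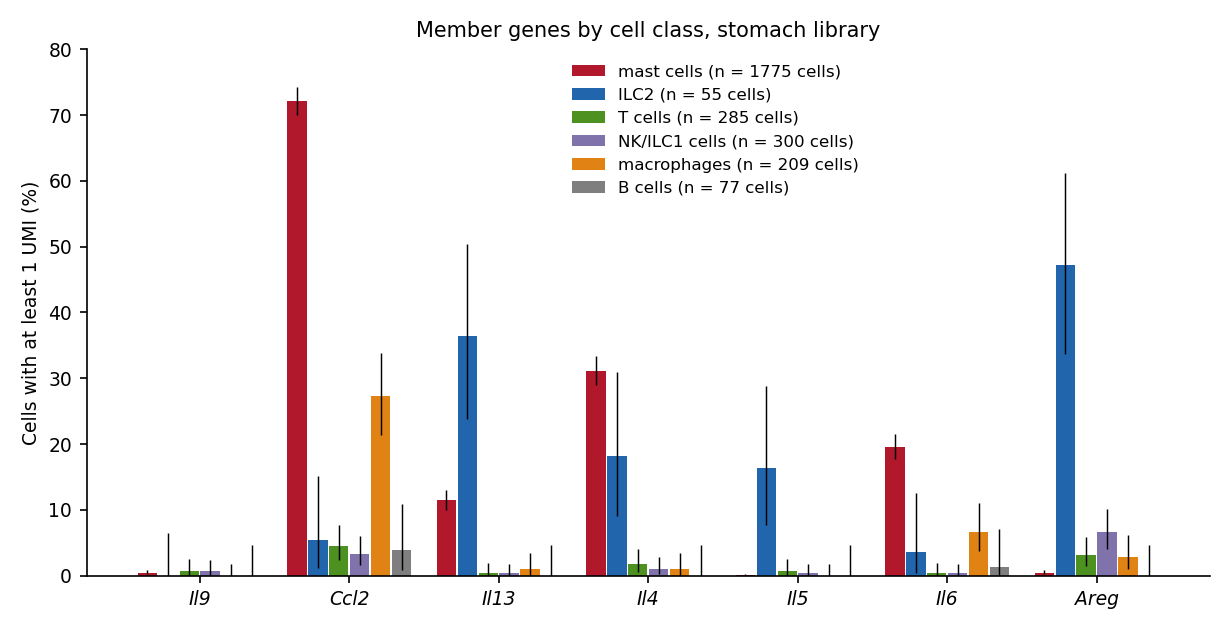
Share of cells with at least 1 UMI (vertical axis, percent) of each gene in 6 classes of the stomach library; bars are shares and black lines exact binomial 95% intervals, which cover counting error only. Ccl2 stands at 72.2% in mast cells, Areg at 47.3% in ILC2, and Il9 is at or under 0.702% in every class.

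Ccl2-positive and Ccl2-negative mast cells of the stomach were alike in most genes. Of 3089 genes with at least 50 CPM in either group and 20 UMIs over both, 10 (0.324%) were at least 2-fold higher and 8 (0.259%) at least 2-fold lower in the 1281 positive than in the 494 negative cells. The median log2 ratio over all genes was -0.02. Because Ccl2 itself split the cells, and the cells come from 1 library, these ratios carry no test. Positive cells were deeper, with a median of 2075 UMIs against 1724.5 in negative cells.

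The highest ratios in Ccl2-positive cells belonged to lysozyme, matrix and chemokine genes. The lysozyme gene Lyz1 had 64.1 CPM in positive and 3.83 CPM in negative cells, the matrix gene Fn1 76.9 and 4.79 CPM, the chemokine Ccl6 62.2 and 10.5 CPM, and the lysozyme gene Lyz2 269 and 56.5 CPM. The macrophage marker list (9 genes) summed to 412 CPM in positive and 234 CPM in negative cells and was seen in 9.68% of positive and 9.31% of negative cells. Without the 129 mast cells with any C1qa, C1qb, C1qc, Lyz2 or Fn1 UMI, the Lyz1 ratio was 0.97 and the Ccl6 ratio 1.42. In that setting 5 of 3054 genes were at least 2-fold higher and 7 lower in positive cells. The neighbouring chemokine Ccl7, a ligand of the same receptor Ccr2, had 160 CPM in positive and 59.4 CPM in negative cells, a ratio of 2.70 (2.07 to 3.57), and was detected in 5.46% of positive and 1.22% of negative cells. With groups and counts both taken from cells thinned to 1000 UMIs, Lyz1 stood at 1.85, Fn1 at 1.74, Ccl6 at 2.64 and Ccl7 at 2.53. The other genes named on this side were Ifitm3 (ratio 2.70, an interferon-induced membrane protein), Pclaf (2.51, a PCNA-binding protein), Rab32 (2.07, a vesicle GTPase), the histones Hist1h1e (2.07) and Hist1h1b (1.92), H2-DMb1 (1.95) and S100a6 (1.92). In the thinned cells Hist1h1e turned to 0.86, Ifitm3 was 1.06 and Hist1h1b 1.06.

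Genes lower in Ccl2-positive cells included 2 granule proteases and an interferon-induced gene. Mcpt8, a protease best known from basophils, had 167 CPM in positive and 387 CPM in negative cells, a ratio of 0.43 (0.38 to 0.49), although it was detected in 8.51% of positive and 6.88% of negative cells. In thinned cells its ratio was 0.60. Gzmb, a serine protease of cytotoxic granules, stood at a ratio of 0.48, and Ifitm1 at 0.47 with 293 CPM in positive and 619 CPM in negative cells. Zfand2a (0.35, a stress-induced zinc finger protein), the transcription factor Batf (0.53), Rad51d (0.54), Ints6 (0.54), the integrin Itgax (0.54), the cell cycle inhibitor Cdkn1b (0.54), Arhgap4 (0.56), Pde1c (0.57), March7 (0.57) and Cited4 (0.57) followed. Il13 had 89.7 CPM in positive and 187 CPM in negative cells (ratio 0.48), although it was detected in 12.6% of positive and 8.5% of negative cells, and 1 cell held 32.3% of the 195 UMIs of the negative group. Il4 had 188 and 186 CPM (ratio 1.01), and Il6 had 132 and 113 CPM (ratio 1.17).

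Of the gene lists tied to mast cell activation, few members crossed 2-fold between Ccl2-positive and Ccl2-negative cells. Among 12 measured proteases, 0 were higher and 2 lower, Gzmb and Mcpt8, with a list median log2 ratio of 0.07. None of 13 transcription factors, 17 immediate early genes, 7 genes of the IgE receptor, Kit and alarmin receptor list, 10 genes of IgE receptor signalling, 6 NF-kappa-B feedback genes, 10 amine and lipid mediator genes or 8 cell cycle genes crossed 2-fold in either direction. The 11 heat-shock genes tested likewise held 0 past 2-fold, with a median log2 ratio of -0.35, below that of all genes, and a sum of 24780.5 CPM in positive and 31174 CPM in negative cells. Among 11 further cytokines and chemokines, Ccl7 was higher and Il1b lower. Genes whose level across the 1775 mast cells was most like Ccl2 were the chymase Cma1 (Pearson r 0.22), the filament gene Vim (0.21), the convertase Furin (0.16), Lgals1 (0.15) and Ier3 (0.15), all weak, over cells that share 1 library and differ in depth.

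**Figure D2:**
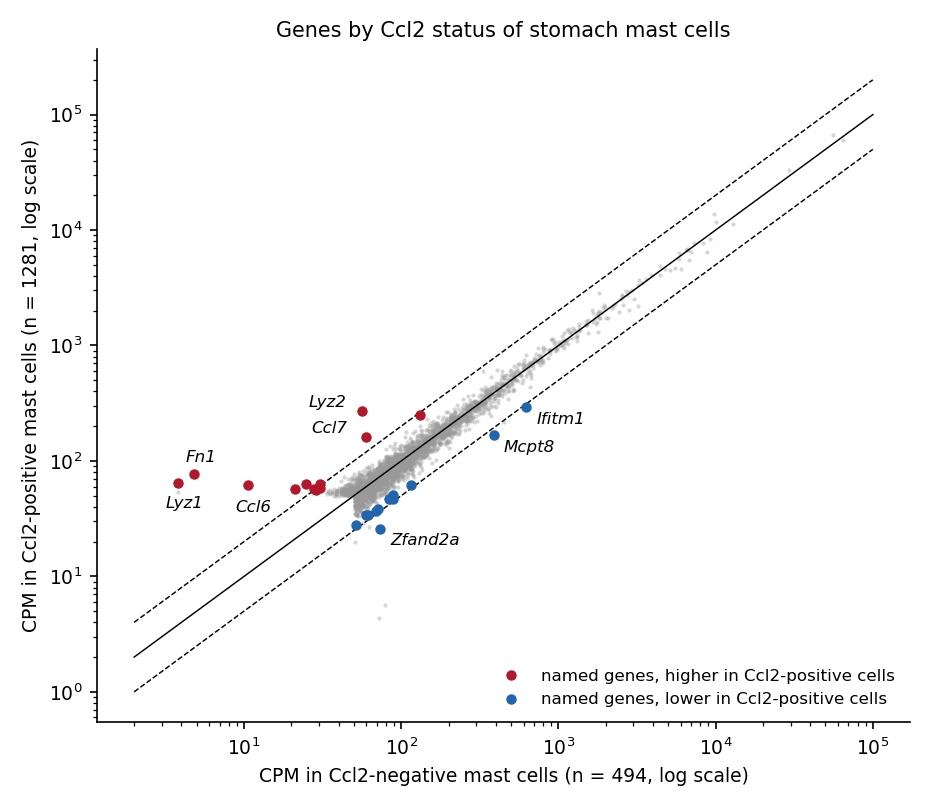
CPM of each tested gene in Ccl2-positive (vertical) and Ccl2-negative (horizontal) stomach mast cells, both axes logarithmic; the solid line marks equal values, dashed lines 2-fold, and coloured points the genes named by rule. Most genes lie between the dashed lines; Lyz1 and Fn1 lie far above, Mcpt8 and Ifitm1 below.

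Il9, a growth factor for mast cells, rested on 1 stomach cell. It had a UMI in 8 of 1775 mast cells, 0.451% (0.195 to 0.886), with 2586 UMIs. Of the 2591 Il9 UMIs of the whole stomach library, 2579 (99.5%) lay in 1 mast cell. The other 12 positive cells had 1 UMI each: 7 mast cells (0.395% of the other 1774), 2 of 285 T cells (0.702%), 2 of 300 NK/ILC1 cells (0.667%) and 1 cell in no gate. The share in mast cells outside that cell was thus no higher than in T cells (interval 0.085 to 2.51%) and NK/ILC1 cells (0.081 to 2.39%). Whether these single UMIs are background was not tested. Without the cell with 2579 UMIs the mast cell level was 1.64 CPM in place of 607 CPM. No Il9 UMI was seen in 55 ILC2, which allows a share of up to 5.45%, nor in 77 B cells, which allows up to 3.9%.

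That cell carried transcripts of mast cell proteases, and whether its barcode held more than 1 cell was not tested. It held 11318 UMIs, the fifth highest total among mast cells, of which 22.8% were Il9. It carried 1066 UMIs of Mcpt1, 948 of Mcpt2, 72 of Cma1, 73 of Tpsb2, 8 of Gata2, 4 of Cpa3 and 2 of Kit, with Trac, Trdc and Cd3e at 0 and 1 UMI of Lyz2. Relative to its 8698 UMIs outside the 7 member genes, Cpa3 was 14.7-fold, Tpsab1 10.9-fold and Kit 4.45-fold lower than in the other mast cells. Not all mast cell genes were lower: Gata2 had a ratio of 0.93, Tpsg1 0.99 and Hdc 1.86 (0.50 to 4.77). Stress and immediate early genes were among the largest deficits. Fos was 74.2-fold and Hspa1b 21.2-fold lower, and Dnajb1 and Hspa1a were at 0, at least 20.5-fold and 14.4-fold lower. Against these, Hspd1 had a ratio of 1.53 and Egr2, with 2 UMIs, 12.8. Mcpt4 and Alox5ap were at 0, at least 2.36-fold and 4.11-fold lower when bounded at 3 counts. Ms4a2 was at 0 too, but its 139 CPM in the other mast cells was too low for a ratio. Its 4 Cpa3 UMIs were 1 above the 3 that the gate asks for. Its 34 Il13 UMIs were below a highest value of 63 in any mast cell, and it held 5 of Il6, 2 of Il4 and 0 of Ccl2, Il5 and Areg. Of 71 genes with at least 10 UMIs in it, 31 were at least 2-fold higher than in the other 1774 mast cells. The following were chosen after their values were seen, since the rule for named genes needs 10 cells and could name none on this side. Fabp5, a fatty acid binding protein, had 27 UMIs in this cell and 21 in all other mast cells together, a ratio of 626 (341 to 1165). Tnfrsf9, the costimulatory receptor 4-1BB, had 18 UMIs against 26 (ratio 337), its adaptor Traf1 10 against 37 (132) and the protease Ctsg 12 against 51 (115). Mcpt8 had 62 UMIs against 876 (34.5), the chemokine Ccl3 46 against 1101 (20.3), the chemokine Xcl1 10 against 275 (17.7) and the actin-severing protein Scin 15 against 314 (23.3). Fcer1g, the signalling chain of the IgE receptor, had 2 UMIs against 15196 (ratio 0.064), and Il1rl1, a receptor for an epithelial alarmin, had 0 against 2944. Of other receptor genes, Il2ra had 3 UMIs against 7 (209) and Gpr183 17 against 369 (22.4).

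As a group, the 8 Il9-positive cells against the 1767 negative cells gave 836 of 3608 genes (23.2%) at least 2-fold higher and 432 (12%) lower. The positive group had a median of 2259.5 UMIs per cell and 41808 UMIs in all, of which 42.4% came from 1 cell, so these counts rest on few transcripts. Because 7 of the 8 cells hold a single Il9 UMI each, the contrast is not read as one of Il9 expression. Without the cell with the most Il9 UMIs, 1205 of 4133 genes were at least 2-fold higher and 366 lower. The rule named only lower genes, 12 in all, of which Lxn, Adgra1, Lyz2, H2-Aa, Ddc, H2-Eb1, Jmjd1c and Tns1 rest on 1 UMI in the positive cells. The others were Mcpt4 (3 UMIs), Lgals3 (5 UMIs), Ninj1 and Gas7.

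**Figure D3:**
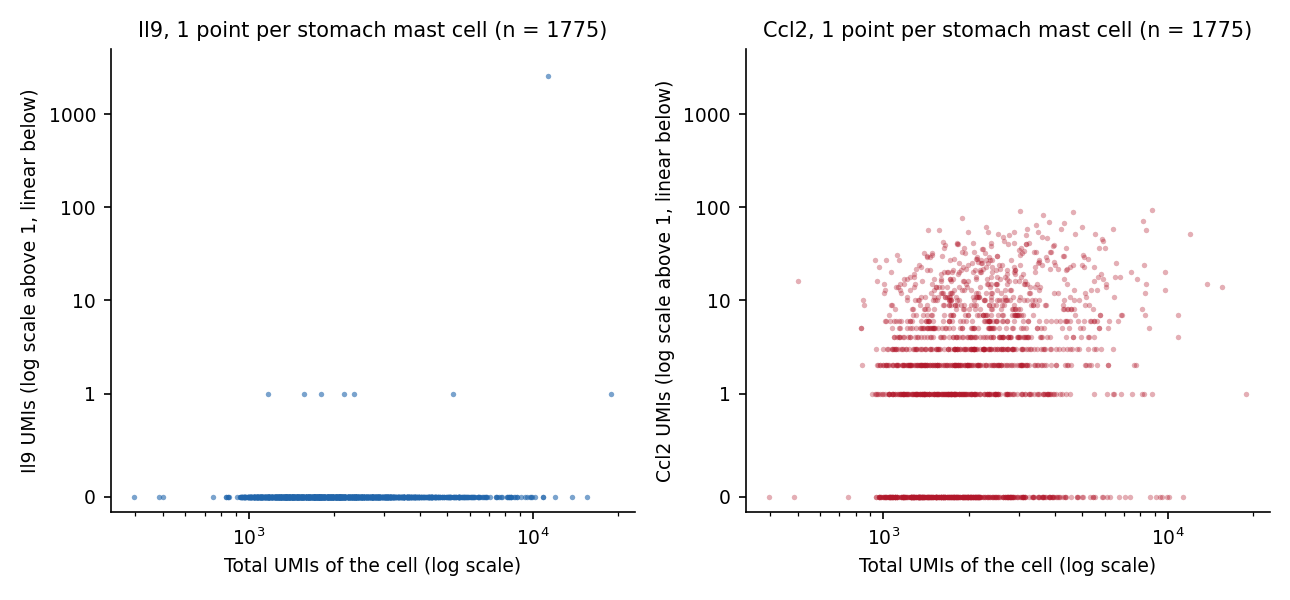
UMIs of Il9 (left) and Ccl2 (right) in each of the 1775 stomach mast cells against the cell's total UMIs (log scale); the vertical axis is logarithmic above 1 and linear below. In the Il9 panel 1 point stands at 2579 and 7 at 1, while Ccl2 spreads up to 93 over cells of all depths.

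Il4, Il13 and Il6 were spread over more mast cells, mostly at 1 UMI. Il4, which drives IgE class switching, had a UMI in 553 stomach mast cells, 31.2% (29 to 33.4), at 187 CPM, and 393 of them held 1 UMI. Il6, an acute-phase cytokine, had a UMI in 348 cells, 19.6% (17.8 to 21.5), at 127 CPM. Il13, which acts on epithelium and smooth muscle, had a UMI in 204 cells, 11.5% (10 to 13.1), at 113 CPM, with 4 cells at 10 or more. Thinned to 1000 UMIs the shares were 16.7% for Il4, 9.91% for Il6 and 6.05% for Il13. In stomach B cells Il4 and Il13 were at 0 of 77, which allows up to 3.9%, and Il6 was in 1 cell, with 10 UMIs. Il6 was also found in 14 of 209 macrophages (6.7%). Small intestine mast cells carried Il4 in 12, Il13 in 4 and Il6 in 4 of 56 cells, and cecum mast cells Il4 in 3 of 15. In CPM, Il13 was 3.46-fold (1.47 to 10.7) and Il6 2.77-fold (1.34 to 6.93) higher in stomach than in small intestine mast cells, while for Il4 the ratio of 1.59 had an interval from 0.997 to 2.69. Il5, the eosinophil growth factor, had 1 UMI in 1 mast cell, and Areg, an EGF receptor ligand, had 26 UMIs in 8 mast cells (0.451%).

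The shares were higher in deeper cells. In 593 shallow, 590 middle and 592 deep mast cells, Il4 was in 19.1%, 29.8% and 44.6% of cells, Il6 in 12%, 16.3% and 30.6%, and Il13 in 5.06%, 8.81% and 20.6%. In the same groups the level of Il4 was 188, 199 and 180 CPM, and that of Il13 was 56.5, 75.6 and 150 CPM.

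Gzmb, Scin, Mcpt8 and 4 chemokines had a higher CPM in Il13-positive than in Il13-negative mast cells. This comparison, and those for Il4, Il6 and Areg, were added after the data were seen. Of 3119 genes, 15 (0.481%) were at least 2-fold higher and 17 (0.545%) lower in the 204 positive than in the 1571 negative cells. Gzmb had 949 CPM in positive and 144 CPM in negative cells (ratio 6.60, 5.87 to 7.42), and was detected in 16.2% of positive and 4.39% of negative cells. Scin (3.57), Mcpt8 (3.0) and the chemokines Ccl7 (2.34) and Ccl4 (2.10) were also higher. Gzmb and Mcpt8 were the 2 of 12 proteases past 2-fold, with 0 lower and a list median log2 ratio of -0.11. Of 11 further cytokines and chemokines tested, 4 were higher and 0 lower, with a list median log2 ratio of 0.81 against 0.02 for all genes; Ccl1 (4.44) and Ccl3 (3.13) were the others, and 1 cell held 38.1% and 27.3% of their UMIs in the positive group. Depth moved with the groups, at a median of 2822.5 UMIs in positive and 1879 in negative cells. Without the 5% of cells with the most UMIs the ratios were 4.32 for Gzmb, 2.06 for Scin, 1.84 for Mcpt8, 1.40 for Ccl7 and 2.36 for Ccl4. The remaining genes named as higher had ratios of 2.0 to 2.29 (Snhg15, Asna1, Timm8a1, Nusap1, Ppan, Socs2 and Nob1).

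Among the genes lower in Il13-positive mast cells, Lyz1 (0.025), C1qa (0.046), H2-Aa (0.16), H2-Eb1 (0.17), H2-Ab1 (0.18), Cd74 (0.19) and Lyz2 (0.26) led, followed by Speer4e (0.29), H2-DMb1 (0.41) and Prkg1 (0.48). Detection differed little for Cd74, at 11.8% of positive and 9.55% of negative cells, and for H2-Ab1, at 8.33% and 7.64%. The macrophage list summed to 76.6 CPM in positive and 424 CPM in negative cells, with Csf1r, Ms4a7 and Mrc1 at 0 in the positive cells. Without the 129 cells carrying macrophage transcripts the count of lower genes was 7, and Cd74 stood at 0.98 and H2-Ab1 at 0.88. Fn1, at 0.45 here, turned to 1.09, and Ccl6, at 0.43, to 1.24, without the deepest 5% of cells.

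Il4-positive cells (553 against 1222 negative) showed 12 of 3024 genes (0.397%) at least 2-fold higher and 13 (0.43%) lower. Gzmb (3.41), Scin (3.15), Mcpt8 (2.79) and Ifitm1 (2.46) were higher, as were the mitosis genes Cenpf (3.45), Ube2c (3.25), Ccnb2 (2.42), Cdca8 (2.39) and Birc5 (2.19). Positive cells had a median of 2365 UMIs and negative cells of 1783. Cenpf turned to 0.43 and Ube2c to 0.64 with groups and counts thinned, and without the 5% of cells with the most UMIs 0 genes were 2-fold higher. The lower genes were led by Fn1, Ccl6, Lyz1, Cd74, H2-Aa and H2-Eb1, and without cells carrying macrophage transcripts 1 lower gene was left. The macrophage list summed to 163 CPM in positive and 493 CPM in negative cells.

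Il6-positive cells (348 against 1427 negative) had 42 of 3090 genes (1.36%) at least 2-fold higher and 2 (0.0647%) lower. Of 12 cell cycle genes tested 8 were higher, with a list median log2 ratio of 1.42 against 0.00 for all genes; Cdc20 and Ube2c had ratios of 7.51 each, Hist1h2ap 6.18, Cdk1 5.44, Birc5 5.25 and Top2a 4.26. Depth moved with the groups. Il6-positive cells had a median of 2548.5 UMIs and negative cells of 1855, and with groups and counts both thinned Hist1h2ap was 0.68, Cdk1 0.83, Birc5 0.33 and Top2a 0.61. Gzmb, at 5.52, was 2.52 when thinned. Without the 5% of cells with the most UMIs 8 genes were at least 2-fold higher and Top2a was 0.75. The macrophage list summed to 469 CPM in positive and 331 CPM in negative cells. Without the 129 cells carrying macrophage transcripts, the count of higher genes was 40 and that of lower genes 1. That setting compared 309 positive and 1337 negative cells. Over all mast cells, the lower genes Fblim1 (0.33) and Speer4e (0.48) were the 2 past 2-fold.

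At equal depth, the intervals in mast cells with and without the second gene overlapped for each pair of Ccl2, Il13, Il4 and Il6 except Il6 with Il13. Of Ccl2, Il13, Il4 and Il6, none was seen in 285 mast cells, 1 in 799, 2 in 515, 3 in 147 and all 4 in 29, and the median depth ran from 1564 UMIs in cells with none to 4193 in cells with all 4. At full depth Il4 was in 45.1% of Il13-positive and 29.3% of Il13-negative cells. Thinned to 1000 UMIs, it was in 12.4% (6.76 to 20.2) of positive and 17.0% (15.2 to 18.9) of negative cells. Ccl2 was in 60% of Il13-positive and 59.7% of Il13-negative thinned cells. The pair of Il6 and Il13 differed from this: Il6 was in 34.8% of Il13-positive and 17.6% of Il13-negative cells at full depth, and in 19% (12 to 27.9) and 9.32% (7.95 to 10.8) after thinning. Il13 likewise was in 11.6% (7.25 to 17.4) of Il6-positive and 5.43% (4.36 to 6.68) of Il6-negative thinned cells.

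**Figure D4:**
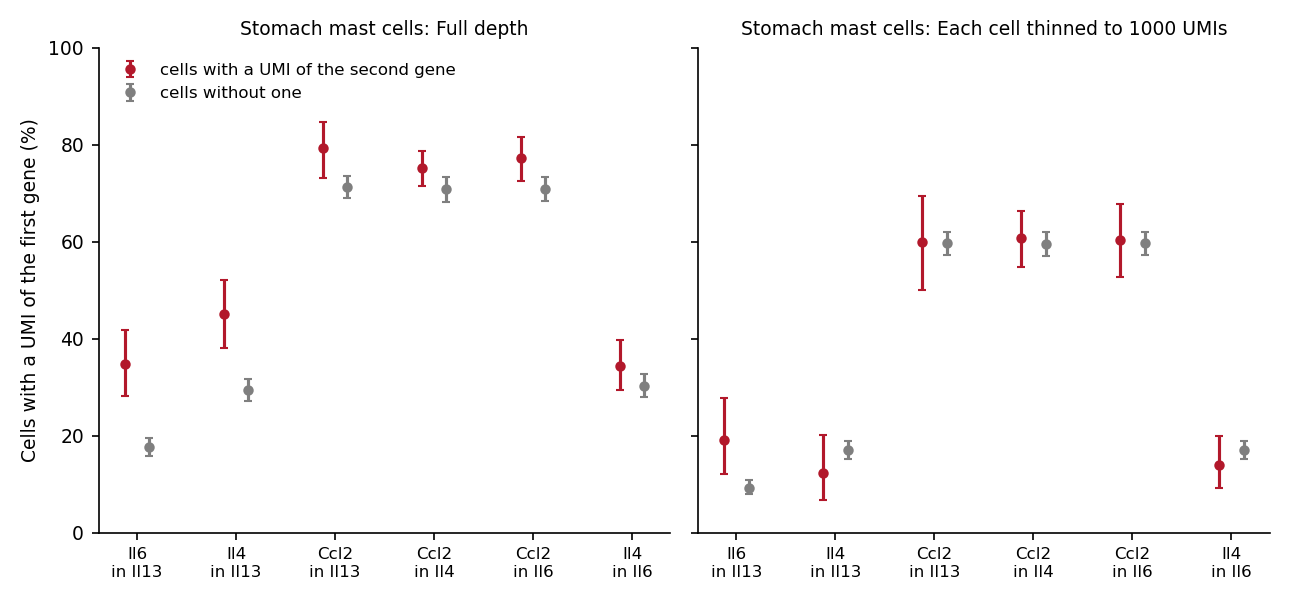
Share of stomach mast cells with a UMI of the first gene, in cells with (red) and without (grey) a UMI of the second, at full depth (left) and after thinning each cell to 1000 UMIs (right); lines are exact binomial 95% intervals, counting error only. Of the 6 pairs drawn, the red and grey intervals after thinning are apart for Il6 in Il13 alone, at 19% and 9.32%.

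Stomach ILC2 carried Areg, Il13 and Il5. Areg had a UMI in 26 of 55 cells, 47.3% (33.7 to 61.2), at 624 CPM, Il13 in 20, 36.4% (23.8 to 50.4), at 439 CPM, Il4 in 10, 18.2% (9.08 to 30.9), at 117 CPM, and Il5 in 9, 16.4% (7.77 to 28.8), at 89.2 CPM. Il13 in mast cells was 0.26 of its level in ILC2 (0.20 to 0.34), and Areg 0.0098 of it (0.0061 to 0.015). For Il4 the ratio of mast cells over ILC2 was 1.60, with an interval from 0.994 to 2.76. Mast cells nonetheless held 482 Il13 UMIs in the library and ILC2 64, with mast cells making up 55.5% and ILC2 1.72% of the stomach cells. Ccl2 was seen in 3 ILC2 and Il6 in 2. In ILC2 the neighbours Il4 and Il13 were seen in the same cells: 9 of 20 Il13-positive cells carried Il4, and 1 of 35 negative cells did, and after thinning 5 of 14 and 1 of 41. Of the 9 small intestine ILC2, 5 carried Areg, 2 Il4, 1 Il13, 1 Il6 and 0 Ccl2. The 1 cecum ILC2 carried no listed member, nor did either of the 2 colon cells.

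T cells carried few of these transcripts. Il4 was in 5 of 285 stomach (1.75%), 6 of 2475 small intestine (0.242%) and 1 of 3402 cecum T cells. Il13 was in 1 stomach, 6 small intestine and 3 colon T cells. Il5 had 9 UMIs in 2 stomach T cells, 8 of them in 1. Il6 was in 1 stomach and 1 small intestine T cell, and Ccl2 in 2, 1 and 3 T cells of small intestine, cecum and colon. Each of these shares lies below the upper bound that the B cells of the same library allow. That bound is set mainly by the number of B cells (77, 170, 441 and 167), so it cannot tell these T cell shares from background. A difference between T and B cells was not tested for these genes.

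Areg had a UMI in 9 of 285 stomach T cells, 3.16% (1.45 to 5.91), 18 of 2475 in the small intestine, 0.727% (0.432 to 1.15), 35 of 3402 in the cecum, 1.03% (0.718 to 1.43), and 14 of 3350 in the colon, 0.418% (0.229 to 0.7). B cells had 0 of 77, 0 of 170, 0 of 441 and 0 of 167, which allows up to 3.9%, 1.76%, 0.68% and 1.8% by the limit of 3 counts. The exact binomial intervals of these B cells reach 4.68%, 2.15%, 0.833% and 2.18% and overlap those of the T cells in all 4 tissues. In CPM, the T cell interval was 3.87 to 7.57 in the small intestine and 14.5 to 21.0 in the cecum. The B cell intervals there reached 1.85 and 4.52 CPM and lay apart from those of the T cells. In stomach and colon the CPM intervals overlapped. A difference between T and B cells was not tested. Median depths of T cells were 2581, 2333, 1757 and 3014.5 UMIs and of B cells 2323, 11608, 1260 and 1959 UMIs in these tissues. At 1000 UMIs per cell the cecum T cell share was 0.568% (0.342 to 0.885). In the colon 50 of 70 UMIs lay in 1 cell. The NK/ILC1 cells of the stomach carried Areg in 20 of 300, 6.67% (4.12 to 10.1), at 52.5 CPM, 0.084 of the ILC2 level.

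**Figure D5:**
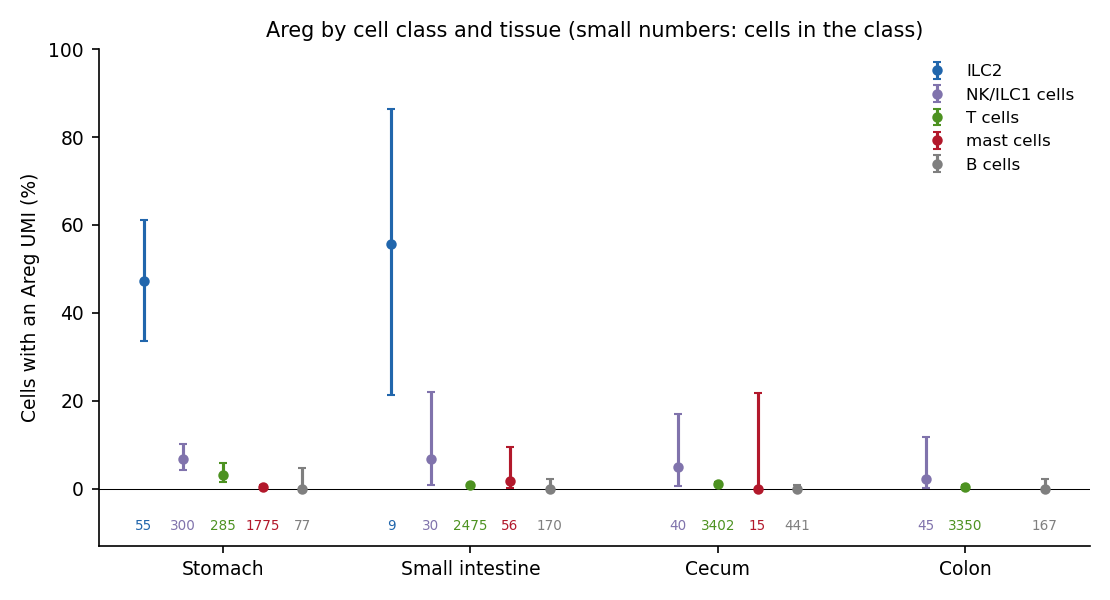
Share of cells with an Areg UMI by class and tissue, with exact binomial 95% intervals (counting error only) and the number of cells in each class written below; classes with under 9 cells are left out. ILC2 stand at 47.3% in stomach and 55.6% in small intestine, and T cells at or under 3.16% in every tissue.

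The 35 Areg-positive cecum T cells differed from the 3367 negative ones in Cd4, Icos and other genes. Of 4773 genes, 436 (9.13%) were at least 2-fold higher and 335 (7.02%) lower. Cd4, the helper coreceptor, was in 11 of 35 positive cells (31.4%, 16.9 to 49.3) and 42 of 3367 negative cells (1.25%), a CPM ratio of 25.2 (14.6 to 42). Cd8a was in 4 of 35 positive (11.4%) and 1252 negative cells (37.2%). Icos, a costimulatory receptor, was in 65.7% of positive and 9.62% of negative cells (ratio 9.11), and the activation marker Cd83 had a ratio of 21.1, the transcription factors Maf 20.6 and Rora 10.8, the inhibitory receptors Ctla4 5.68 and Pdcd1 4.51, and Tbc1d4 10.0, Capg 9.28, Ramp3 6.5, Bcl2a1b 4.71 and Cxcr4 4.38. Depth was alike, at a median of 1812 UMIs in positive and 1756 in negative cells. Il10, chosen after its values were seen, had 32 UMIs in 4 positive cells and 3 UMIs in 3 negative cells. Of the transcription factor list 8 of 15 tested genes were higher and 0 lower (median log2 ratio 1.31, all genes 0.04). The higher ones included Irf4, Batf, Maf, Rora and Spi1, while Gata3 was in 25.7% of positive and 20.6% of negative cells. Other lists moved too, with 0 lower genes in each: 5 of 10 NF-kappa-B feedback, 6 of 10 cell cycle and 4 of 6 ILC2 genes were higher. Of 18 immediate early genes 2 were higher and 1 lower, and of 11 heat-shock genes 0 passed 2-fold. The macrophage list summed to 741 CPM in positive and 44.8 CPM in negative cells, with all 60 Lyz2 UMIs of the positive group in 1 cell. Genes named as lower rest on 1 UMI each in the positive cells (Ccl4, Hes6, Prdx3, Prr5 and 8 more) and are not read further. In the other tissues Cd4 was in 0 of 9 Areg-positive and 34 of 276 negative T cells of the stomach, 2 of 18 and 96 of 2457 of the small intestine, and 2 of 14 and 66 of 3336 of the colon. In the colon neither Icos nor Rora was seen in the 14 positive T cells, while 324 and 94 of the 3336 negative ones carried them.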

How the data were processed

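The authors deposited a matrix of UMI counts for each library, made with the 10x 3′ v2 kit per the labels and with Cell Ranger and Seurat 3.0.0 on GRCm38 (mm10) per the submitters' processing notes. All values were whole numbers and were used as raw counts; every column of values was assigned to a library. The members and gene lists were chosen with earlier results of these data known. Barcodes with at least 200 genes were kept, which removed 5 of 14378, and no doublet caller was run. Cells mixing Cpa3 (at least 3 UMIs), Cd3 genes or Cd79a were left out of the gates. Mast, T and B cells could carry Ncr1 or C1q genes, and NK/ILC1 cells could carry C1q genes. Among the stomach mast cells, 28 carried C1qa. T cells had at least 2 UMIs over Cd3d, Cd3e and Cd3g, B cells at least 2 of Cd79a, NK/ILC1 cells at least 1 of Ncr1 and macrophages at least 2 over C1qa, C1qb and C1qc, with under 3 Cpa3 UMIs and no Cd3 gene or Cd79a other than the class's own. ILC2 also lacked Ncr1 and C1qa, and macrophages lacked Ncr1. Total UMIs were 8568438 to 12987965 per library. Shares have exact Clopper-Pearson intervals, levels exact Poisson intervals and ratios exact conditional binomial intervals, at 95%, for counting error only. A count of 0 was bounded at 3 counts. Ratios are of CPM from summed counts, with the 7 members left out of totals, over genes with at least 50 CPM in either group and 20 UMIs over both; 1 library per tissue allows no test between conditions. Genes were named by rule: the 12 highest and 12 lowest ratios whose interval excludes 1, in at least 10 cells of the higher group and with no cell over 20% of its UMIs, leaving out the members and unnamed, sex-linked, hemoglobin, immunoglobulin, mitochondrial and ribosomal genes. Likeness was Pearson's r of log2(1 + UMIs per 10000) over genes in at least 5% of mast cells. The interval was checked on simulated counts. Python 3.11.15, numpy 2.4.6, scipy 1.17.1, pandas 2.3.3 and matplotlib 3.10.9 were used.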

Additional observations from a re-analysis of the deposited data

How the results depend on the processing

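No paired analysis was possible because there was 1 library per tissue and no result came from a test. Each library is its own only replicate, so leaving out a replicate could not be run. Depth limits the shares: transcripts at 1 UMI are missed in shallow cells. The cause of each shift was not tested. Counts for Il9-positive stomach mast cells moved by over 1.5 times in these settings: floor 20 CPM 1848 higher, floor 100 CPM 406 higher and 215 lower, positive cells with at least 3 UMIs 1567 higher and 171 lower, thinned to 1000 UMIs 1394 higher and 77 lower, without the 5% of cells with the most UMIs 1677 higher and 139 lower, groups and counts thinned to 1000 UMIs 24 lower. Counts for Ccl2-positive stomach mast cells moved by over 1.5 times in these settings: floor 20 CPM 26 higher and 46 lower, floor 100 CPM 2 higher and 3 lower, positive cells with at least 3 UMIs 13 lower, thinned to 1000 UMIs 6 higher and 21 lower, Cpa3 at least 10 UMIs 6 higher, without the 5% of cells with the most UMIs 6 higher and 4 lower, groups and counts thinned to 1000 UMIs 2 higher and 14 lower, without cells with macrophage transcripts 5 higher. Counts for Il13-positive stomach mast cells moved by over 1.5 times in these settings: thinned to 1000 UMIs 84 higher and 60 lower, groups and counts thinned to 1000 UMIs 194 higher and 162 lower, without cells with macrophage transcripts 7 lower. Counts for Il4-positive stomach mast cells moved by over 1.5 times in these settings: without the 5% of cells with the most UMIs 0 higher, groups and counts thinned to 1000 UMIs 33 lower, without cells with macrophage transcripts 1 lower. Counts for Il6-positive stomach mast cells moved by over 1.5 times in these settings: thinned to 1000 UMIs 23 lower, without the 5% of cells with the most UMIs 8 higher and 5 lower, groups and counts thinned to 1000 UMIs 79 higher and 72 lower, without cells with macrophage transcripts 1 lower. Counts for Areg-positive cecum T cells moved by over 1.5 times in these settings: thinned to 1000 UMIs 989 higher and 601 lower, groups and counts thinned to 1000 UMIs 1595 higher. In the setting at least 2 UMIs, shares were Il9 0.0563%, Ccl2 57.5%, Il13 3.49%, Il4 9.01%, Il5 0%, Il6 5.69%, Areg 0.169% in stomach mast cells, Il13 23.6%, Il4 7.27%, Il5 3.64%, Il6 0%, Areg 32.7% in stomach ILC2, Il9 0%, Ccl2 0.702%, Il13 0%, Il4 0.351%, Areg 1.4% in stomach T cells, Ccl2 0%, Il13 0%, Il4 0.0404%, Il6 0%, Areg 0.404% in small intestine T cells, Ccl2 0%, Il4 0%, Areg 0.529% in cecum T cells, Il13 0%, Areg 0.149% in colon T cells. In the setting thinned to 1000 UMIs, shares were Il9 0.173%, Ccl2 59.7%, Il13 6.05%, Il4 16.7%, Il5 0%, Il6 9.91% in stomach mast cells, Il5 3.64%, Il6 0% in stomach ILC2, Ccl2 2.11%, Il13 0%, Il4 0%, Il6 0% in stomach T cells, Ccl2 0%, Il6 0%, Areg 0.364% in small intestine T cells, Ccl2 0%, Il4 0%, Areg 0.568% in cecum T cells, Ccl2 0%, Areg 0.15% in colon T cells. In the setting Cpa3 at least 10 UMIs, shares were Ccl2 74.6%, Il13 14.9%, Il4 35.4%, Il5 0%, Il6 21.7% in stomach mast cells. In the setting without the 5% of cells with the most UMIs, shares were Il6 17.5% in stomach mast cells. In the setting at least 2 of 6 markers, shares were Il13 21.5%, Areg 31.2% in stomach ILC2. Ratios in Il9-positive stomach mast cells turned in these settings: groups and counts thinned to 1000 UMIs for Ddc (1.84), without cells with macrophage transcripts for H2-Aa (1.06). Ratios in Ccl2-positive stomach mast cells turned in these settings: groups and counts thinned to 1000 UMIs for Hist1h1e (0.856), without cells with macrophage transcripts for Lyz1 (0.971). Ratios in Il13-positive stomach mast cells turned in these settings: thinned to 1000 UMIs for Fn1 (1.23), without the 5% of cells with the most UMIs for Ccl6 (1.24) and Fn1 (1.09). Ratios in Il4-positive stomach mast cells turned in these settings: groups and counts thinned to 1000 UMIs for Cenpf (0.428) and Ube2c (0.644), without cells with macrophage transcripts for Cxcl2 (1.41). Ratios in Il6-positive stomach mast cells turned in these settings: without the 5% of cells with the most UMIs for Top2a (0.746), groups and counts thinned to 1000 UMIs for Hist1h2ap (0.684) and Cdk1 (0.829) and Birc5 (0.326) and Cenpe (0.977) and Cdca8 (0.943) and Top2a (0.608) and Cdk13 (1.32) and Cma2 (1.11). Of the alternatives for shares and counts, 93 stayed within the stated range and 95 moved, and of those for named ratios 346 stayed, 173 moved in size and 19 turned.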
